A study of Homo sapiens with 26 samples.

Results

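In A549 cells carrying the control virus, 1090 of 10740 genomic regions bound by the glucocorticoid receptor (GR) had more GR with budesonide than without it, and more again when interleukin-1β (IL1B) was added. These 1090 regions, 10.1% of all, are described here. They were chosen by the deposited GR values of control-virus cells, as regions whose log2 value was at least 1 higher with budesonide than in untreated cells and at least 1 higher with IL1B plus budesonide than with budesonide alone. Both of those differences are therefore the rule of choice and are given below as descriptions only. Independent of the rule were the same differences in cells with an NF-κB inhibitor, the DNA sequence of the regions and their position.

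The study measured GR by chromatin immunoprecipitation and sequencing (ChIP-seq) in A549, an established human lung carcinoma line with features of alveolar epithelium. All cells carried an adenovirus. It was Ad-IκBαΔN, which delivers the NF-κB inhibitor IκBαΔN, or Ad-GFP, the control that delivers green fluorescent protein. Cells of each virus were given 1 ng/ml IL1B with 300 nM budesonide (I+B), 300 nM budesonide alone (Bud) or nothing (NS), for 1 h. There were 2 GR libraries in each of the 6 groups, from independent experiments, but the authors' table holds 1 value per region and group. No difference between groups thus has a replicate check, and no test, p-value or SD can be given for one. The depth of the libraries cannot be read from the values. The RELA and input libraries of the series were not analysed here.

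GR is a nuclear receptor that stays mostly in the cytoplasm until it binds a glucocorticoid such as budesonide, then enters the nucleus and binds DNA. It binds directly at glucocorticoid response elements (GREs), and it is also found at sites occupied by other factors, such as AP-1, C/EBP and NF-κB. IL1B activates NF-κB by causing the destruction of its inhibitor IκBα, which frees RELA to enter the nucleus and bind κB sites near inflammatory genes. IκBαΔN lacks the N-terminal part of IκBα that marks it for destruction, so it keeps holding NF-κB when IL1B is given. Glucocorticoids are used against airway inflammation, and many inflammatory and feedback genes have GR and NF-κB sites near each other.

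The deposited value was read as log2(signal + 1), where signal is the linear GR value of a 400 bp region in the authors' units, because signal times 400 then came out in whole steps. A difference of 1 is called 2-fold on that scale. In 5 groups signal times 400 was a whole multiple of a step within 0.0001, with 1 region excepted in NS Ad-GFP cells, and the step was not the same in all. It was 1.5 in Ad-IκBαΔN cells given I+B, 3 in Ad-GFP cells given I+B, and 1 in Bud cells of both viruses and in NS Ad-GFP cells. No step was found in NS Ad-IκBαΔN cells. If the steps are divided out, which lowers the Ad-GFP I+B signal 3-fold, 170 of the 1090 regions still meet the rule, and 477 of the 1090 then have an I+B signal below the Bud signal in Ad-GFP. Which scale is the right one was not tested. The members' median I+B minus Bud difference in Ad-GFP cells lay 0.75 above the median of all regions as deposited and 0.73 above it with the steps divided out. The distance of an I+B difference from 0 therefore depends on the scale. The members' distance from the other regions follows from the rule, and dividing a group by a constant shifts all regions nearly alike. That it moved little is thus no check of the choice.

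The sequences below are motif sites of some members with about 50 bases on each side, read from hg38 on the plus strand and written 5′ to 3′. They are examples chosen because they hold a κB match or a GRE, and 71.8% of members hold neither. κB matches, AP-1 matches and GREs each occur in only some members. Capitals mark matches to the GRE (AGAACA, any 3 bases, TGTTCT), allowing up to 2 differences among those 12 fixed bases, the κB consensus or the AP-1 motif TGAGTCA on either strand. The first set are regions with a κB match and no GRE. They lie in an intron of SMAD3 (chr15:67121179-67121288), an intron of USP40 (chr2:233487394-233487503), an intron of MYH9 (chr22:36351091-36351198), upstream of BCL3 (chr19:44725362-44725442) and in an intron of MYBPC1 (chr12:101604275-101604384). The SMAD3 and MYBPC1 stretches also hold an AP-1 match, and BCL3 holds overlapping κB matches on both strands, 1 base apart. KLF4 (chr9:107539527-107539653, intergenic) and EBI3 (chr19:4229143-4229297, just upstream of the gene) hold a κB match and a GRE. NFKBIA (chr14:35374507-35374621, intergenic) holds a GRE and an AP-1 match. ABCG2 (chr4:88196805-88196919, intron) holds the one GRE without mismatch among the 1090 regions and was added after its values were seen.
SMAD3: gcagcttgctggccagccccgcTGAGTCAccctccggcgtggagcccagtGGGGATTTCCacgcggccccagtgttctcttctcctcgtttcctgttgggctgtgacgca
USP40: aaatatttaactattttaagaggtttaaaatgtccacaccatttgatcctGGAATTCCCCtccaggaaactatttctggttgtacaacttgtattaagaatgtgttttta
MYH9: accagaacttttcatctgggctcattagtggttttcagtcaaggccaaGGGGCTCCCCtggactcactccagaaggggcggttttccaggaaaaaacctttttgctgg
BCL3: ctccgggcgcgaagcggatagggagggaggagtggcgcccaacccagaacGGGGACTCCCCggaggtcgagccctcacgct
MYBPC1: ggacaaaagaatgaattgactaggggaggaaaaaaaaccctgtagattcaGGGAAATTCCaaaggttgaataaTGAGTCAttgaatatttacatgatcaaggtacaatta
KLF4: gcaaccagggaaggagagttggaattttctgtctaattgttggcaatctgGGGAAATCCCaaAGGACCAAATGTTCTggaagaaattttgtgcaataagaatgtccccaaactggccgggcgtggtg
EBI3: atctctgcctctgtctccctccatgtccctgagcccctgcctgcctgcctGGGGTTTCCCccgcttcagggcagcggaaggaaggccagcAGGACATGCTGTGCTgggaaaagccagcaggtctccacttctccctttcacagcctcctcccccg
NFKBIA: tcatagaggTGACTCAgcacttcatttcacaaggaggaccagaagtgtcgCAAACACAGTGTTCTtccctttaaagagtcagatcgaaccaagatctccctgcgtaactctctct
ABCG2: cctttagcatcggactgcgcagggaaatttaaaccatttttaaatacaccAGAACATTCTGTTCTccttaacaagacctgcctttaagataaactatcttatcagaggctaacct
Sites of the 2 factors can lie close together, as in KLF4, where the κB match ends 2 bases before the GRE begins. The letters show where a factor could bind, not that it did.

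The 1090 regions were highest with I+B in Ad-GFP cells, lower and alike with I+B and Bud in Ad-IκBαΔN cells and with Bud in Ad-GFP cells, and lowest in NS cells of both viruses. In Ad-IκBαΔN cells the median signal was 26.1 with I+B, 24.0 with Bud and 7.92 in NS. In Ad-GFP cells it was 85.0 with I+B, 24.1 with Bud and 6.35 in NS. The Bud medians of the 2 viruses were thus nearly the same, and the I+B medians were not. Over all 10740 regions the medians were 23.6, 21.6 and 7.79 with I+B, Bud and NS in Ad-IκBαΔN cells, and 45.7, 21.7 and 7.58 in Ad-GFP cells. The members' Bud signal was therefore only slightly above that of all regions, and they stood out in Ad-GFP I+B, where the rule had selected them.

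**Figure D1:**
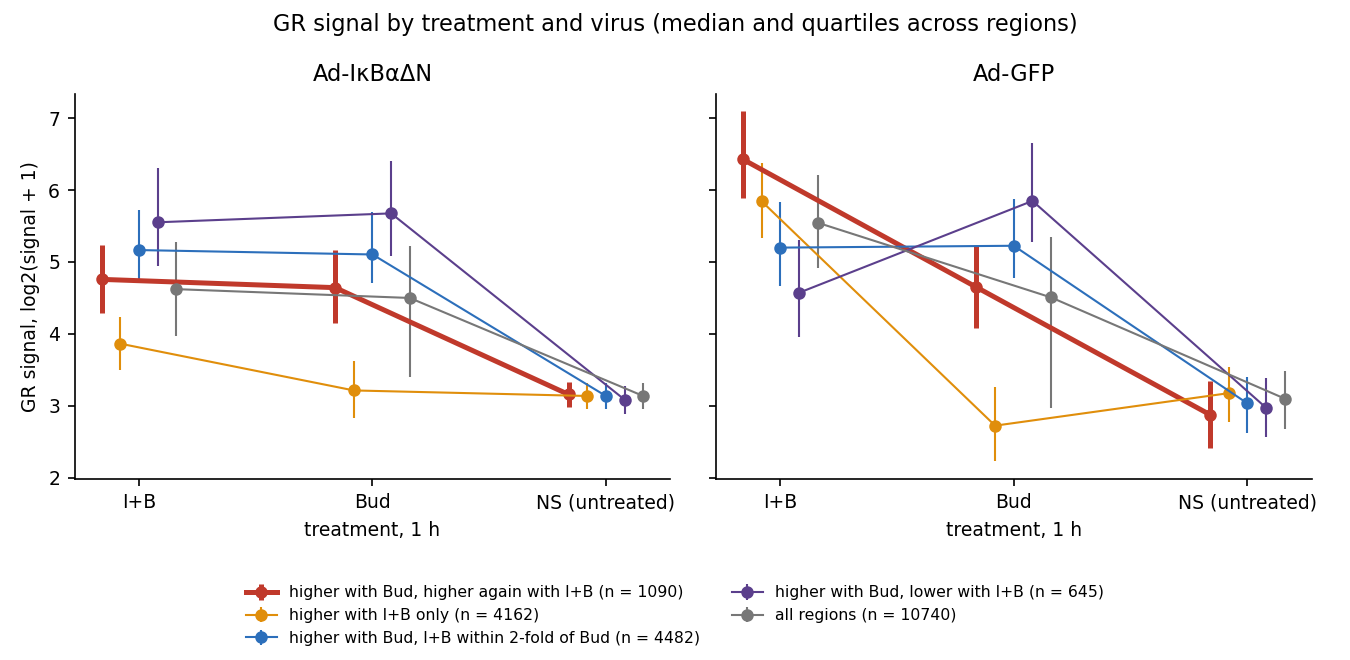
Median GR signal, log2(signal + 1), with bars spanning the quartiles across regions, in Ad-IκBαΔN (left) and Ad-GFP cells (right) given I+B, Bud or nothing (NS), for the 1090 regions, 3 other sets chosen on the same Ad-GFP values and all regions. The red line of the 1090 regions is flat between I+B and Bud in Ad-IκBαΔN cells and steep in Ad-GFP cells.

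On the deposited scale most members had the budesonide difference with the NF-κB inhibitor too. In Ad-IκBαΔN cells 807 of the 1090 regions (74.0%) had a Bud minus NS difference of at least 1, against 59.3% of all regions, and none was 2-fold lower, against 1.06%. The median difference was 1.49 in the members and 1.37 in all regions, and 1074 members were above 0. This rests on the scale, which sets the level of all regions between groups. The members' median was 0.13 with groups re-centred to a common median, 0.10 with quantile normalization and −0.35 when centred on the authors' unchanged class, and 145, 191 and 62 members then reached 1. The members' median was 0.13 above that of all regions as deposited. In Ad-GFP, where the rule fixed it, 57.9% of all regions were at or above 1 and 8.14% were at or below −1, and the members' median was 1.66. The Bud signals of the 2 viruses ran closely together across the members (Pearson r = 0.97 over 1090 regions, and 0.98 over all regions), as a description of values that share a scale. Of the 1090 regions, 1 had a 2-fold higher Bud signal in Ad-IκBαΔN than in Ad-GFP cells, against 4.02% of all regions, and none had a 2-fold lower one, against 0.0186%.

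The 283 members that did not reach 2-fold with Bud in Ad-IκBαΔN cells had lower Bud signals than the other 807. Their median Bud signal was 13.0 in Ad-IκBαΔN cells and 12.9 in Ad-GFP cells, against 28.5 in Ad-IκBαΔN cells and 28.7 in Ad-GFP cells for the others. Their median NS signal was 8.02 in Ad-IκBαΔN cells, against 4.08 in Ad-GFP cells, and that of the others was 7.87 in Ad-IκBαΔN cells and 7.44 in Ad-GFP cells. Between the viruses the medians of the 283 were thus close with Bud and apart in NS. Across all members the NS signal was at least 2-fold higher in Ad-IκBαΔN cells at 165 regions (15.1%), against 7.21% of all regions, and at least 2-fold lower at 12, against 2.77%. Choosing regions for a large Bud minus NS difference in Ad-GFP selects low Ad-GFP NS values, and no step was found in the Ad-IκBαΔN NS values. The part of either in this difference was not tested.

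The further increase with IL1B was, on the deposited scale, nearly absent with the inhibitor. In Ad-IκBαΔN cells the I+B minus Bud difference was at least 1 at 29 of the 1090 regions (2.66%), against 9.65% of all regions, and at most −1 at 6 (0.55%), against 0.94% of all regions. Its median was 0.08 in the members and 0.26 in all regions, and 636 members were above 0. In Ad-GFP cells the rule required at least 1, which 48.9% of all regions reached while 6.07% were at or below −1. The members' median there was 1.68. With the steps divided out the members' I+B minus Bud median was −0.47 in Ad-IκBαΔN and 0.12 in Ad-GFP cells. Over all regions it was then −0.29 in Ad-IκBαΔN and −0.61 in Ad-GFP cells. Comparing the viruses in I+B uses Ad-GFP values that the rule selected as high, so a gap at the members is partly built in. As a description, the I+B signal was at least 2-fold lower in Ad-IκBαΔN than in Ad-GFP cells at 928 members (85.1%), against 46.5% of all regions. The median difference was −1.69 in the members and −0.85 in all regions. With the steps divided out these medians were −0.69 in the members and 0.12 in all regions. The members' median was −0.76 re-centred and −0.69 quantile-normalized. The I+B signal was at least 2-fold higher in Ad-IκBαΔN cells at none, against 5.97% of all regions. Of 4162 regions higher with I+B but not with Bud in Ad-GFP cells, 89.9% were at least 2-fold lower in Ad-IκBαΔN cells. Across the members the I+B minus Bud differences of the 2 viruses had a Pearson r of 0.20 and a Spearman rho of 0.17 (1090 regions). Over all regions r was 0.53 and rho 0.52, and in the 4162 regions r was 0.25. The rule cuts the Ad-GFP difference at 1 and so narrows its range. The members' low r is therefore no result about the inhibitor.

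On the deposited scale, GR at the members with I+B still stood above untreated cells when NF-κB was inhibited. The I+B minus NS difference in Ad-IκBαΔN cells was at least 1 at 890 members (81.7%), against 69.1% of all regions, with a median of 1.58. It was at most −1 at none, against 0.0466% of all regions. In Ad-GFP cells all members reached at least 1 by the rule, as did 93.7% of all regions. The median of all regions in Ad-IκBαΔN cells was 1.48 as deposited, close to that of the members. On other scales the members' median there was 1.03 with the steps divided out, 0.10 re-centred and 0.06 quantile-normalized. It was −0.35 when centred on the authors' unchanged class.

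The other sets, chosen on the same Ad-GFP values, place the members. One, 4162 regions higher with I+B but not with Bud, had a median I+B minus Bud difference of 0.64 in Ad-IκBαΔN cells. Another, 4482 regions higher with Bud and within 2-fold of it with I+B, had −0.01. The last, 645 regions higher with Bud and lower with I+B, had −0.10. The members' 0.08 in Ad-IκBαΔN cells thus lay beside the Bud regions that IL1B left within 2-fold and below the regions gained with I+B alone. Their Bud minus NS median of 1.49 in Ad-IκBαΔN cells stood between 0.08 in the set gained with I+B alone and 2.00 in the set within 2-fold.

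**Figure D2:**
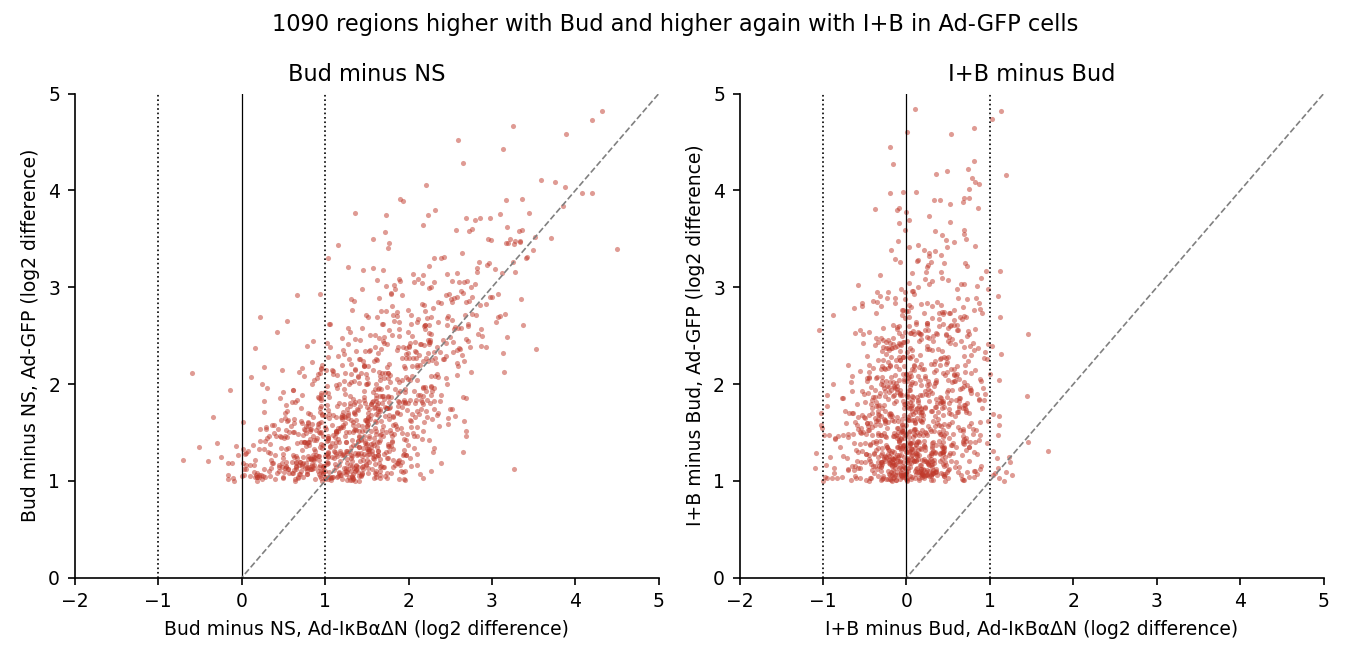
The 1090 regions, 1 point each, with the log2 difference in Ad-IκBαΔN cells on the horizontal axis and in Ad-GFP cells on the vertical axis, for Bud minus NS (left) and I+B minus Bud (right). Dotted lines mark 2-fold in Ad-IκBαΔN cells and the dashed line marks equal differences. The left cloud follows the dashed line (r = 0.65), while the right cloud stands upright around 0, with 29 points at or beyond 1.

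By sequence the members, as chosen on the deposited scale, lay between regions that GR occupied with Bud and regions gained with I+B. A κB match occurred in 22.1% of members (95% Wilson interval 19.7 to 24.7). With members chosen again on the other scales the share was 44.1% with steps divided out, 45.7% re-centred, 46.0% quantile-normalized and 31.7% centred on the unchanged class. On the deposited scale it occurred in 45.1% of the regions gained with I+B alone, 3.17% of Bud regions within 2-fold with I+B, 1.09% of Bud regions lower with I+B, and 21.3% of all regions. A GRE occurred in 7.89% of members (6.43 to 9.64). It occurred in 4.81%, 21.8% and 32.4% of those 3 sets and in 14.7% of all regions. The members thus held more κB matches than the other Bud sets and fewer GREs, with intervals that do not overlap. The intervals cover counting error alone, since members can be neighbours and are no replicates of a condition.

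An AP-1 match occurred in 29.5% of members (26.9 to 32.3), the highest share of the 4 sets as chosen on the deposited scale. The others had 23.8%, 21.4% and 12.1%, and all regions 22.8%. Among members that also met the rule with steps divided out the share was 24.1%. It was 28.6% re-centred, 30.6% quantile-normalized and 39.0% centred on the unchanged class. The 273 members with the lowest I+B minus Bud in Ad-GFP cells had 33.0%, and the highest 273 had 25.3%. AP-1 factors are FOS and JUN dimers, which stress and cytokine signals induce. The motif of C/EBP factors, TTGC followed by any 2 bases and AA, was in 32.4% of members and 29.3% of all regions. The motif of FOXA pioneer factors, TGTTTAC, was in 15.6% of members and 13.1% of all regions, and 9.80% of the regions gained with I+B alone. The motif of TEAD factors, CATTCC, was in 30.6% of members and 28.1% of all regions. All were searched on both strands, and overlapping matches at different bases counted separately. A GRE and a κB match together occurred at 20 members (1.83%), against 1.26% of all regions. Neither occurred at 783 members (71.8%), against 65.2%, and none of the 6 motifs at 201 (18.4%), against 19.9%.

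**Figure D3:**
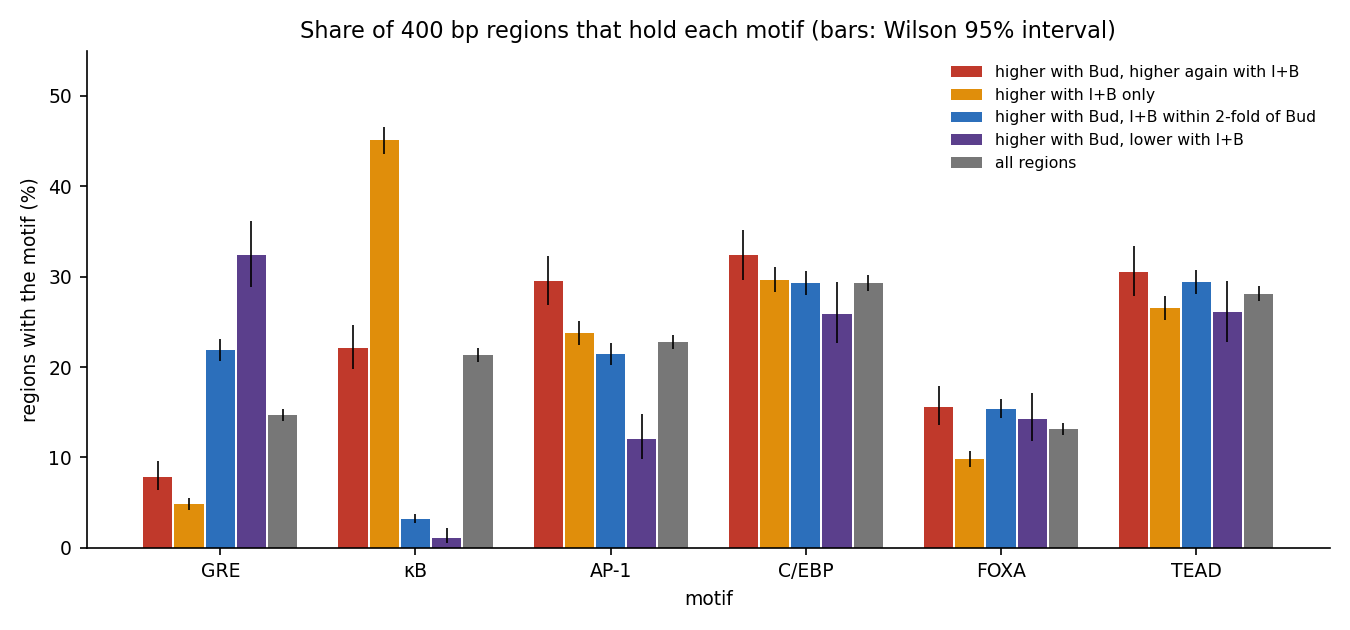
Share of 400 bp regions with at least 1 match to each motif, in the 1090 regions (red), 3 other sets chosen on the same Ad-GFP values and all regions, with 95% Wilson intervals. The red bar is between its neighbours for GRE and κB and is the highest for AP-1.

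Within the members, κB matches went with the size of the I+B difference in Ad-GFP, a value the rule used, so this is a description. Ranked by that difference, the members had a κB match in 9.52% of the lowest 273, 15.1% of the next 272, 26.5% of the next 272 and 37.4% of the highest 273. In the same order the share with a GRE was 8.42%, 11.0%, 6.99% and 5.13%. The 241 members with κB had a median I+B signal of 23.4 in Ad-IκBαΔN cells and 106 in Ad-GFP cells. The 849 without κB had 26.8 in Ad-IκBαΔN cells and 79.8 in Ad-GFP cells. The I+B minus Bud medians in Ad-IκBαΔN cells, which the rule did not use, were close, at 0.07 with κB and 0.09 without it.

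Members with a GRE had an I+B difference under the inhibitor more often than members without one. The 86 members with a GRE had a median I+B minus Bud of 0.28 in Ad-IκBαΔN cells, against 0.07 for the 1004 without, and 9 of 86 (10.5%) reached 2-fold, against 20 of 1004 (1.99%). The same direction was seen in Bud regions within 2-fold with I+B, at 0.21 with a GRE and −0.06 without. It was also seen in Bud regions lower with I+B, at 0.03 with a GRE and −0.18 without. It was not seen in regions gained with I+B alone, at 0.58 with a GRE and 0.64 without. Nor was it seen over all regions, at 0.27 with a GRE and 0.26 without. Of the 29 members at or above 2-fold in Ad-IκBαΔN cells, 9 held a GRE and 9 held a κB match.

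The members' GREs and κB matches were less centred in their regions than those of all regions. The members' 93 GREs had a median distance of 21.5 bp from the centre, against 17.5 bp over all regions. Of these GREs 68.8% were within 50 bp, against 77.9%. Over all regions κB matches had a median distance of 25 bp, and 70.2% were within 50 bp. The members' 301 κB matches had a median distance of 47 bp, against 21 bp in regions gained with I+B alone, and 52.5% were within 50 bp, against 75.6%. The κB matches of Bud regions within 2-fold with I+B had a median distance of 75 bp. So the κB matches of the members were less centred than those of regions gained with I+B alone and more centred than those of the other Bud regions.

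**Figure D4:**
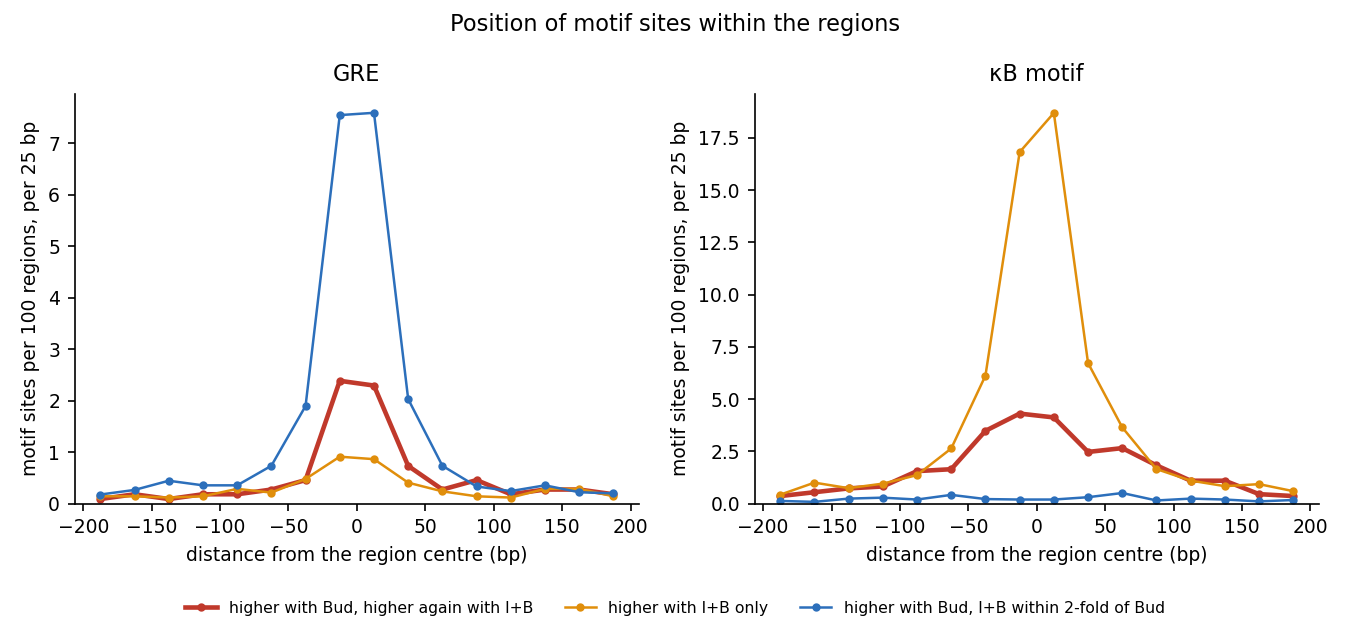
GRE (left) and κB (right) matches per 100 regions in 25 bp steps of distance from the region centre, for the 1090 regions and 2 other sets. The members' GRE profile peaks at the centre at 2.39 per 100 regions, against 7.59 in Bud regions within 2-fold with I+B, and their κB profile peaks at 4.31, against 18.7 in regions gained with I+B alone.

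The members lay closer to other regions than regions did in general. The centre fell in an intron of a protein-coding gene at 490 members (45.0%), against 47.8% of all regions, and between genes at 390 (35.8%), against 32.0%. It fell in a non-coding gene at 174 (16.0%), against 15.9%, and in a UTR at 27 (2.48%), against 2.65%. It fell in a coding exon at 2 (0.183%), against 0.689%, and in other exon sequence at 7 (0.642%), against 0.922%. Within 1 kb of a transcript start lay 77 members (7.06%), against 6.64% of all regions. Another region lay within 10 kb of 538 members (49.4%), against 34.7% of all regions, and the median distance to the next region was 10.3 kb, against 22.7 kb. A region gained with I+B alone lay within 10 kb of 24.4% of members, against 14.6% of all regions. A Bud region within 2-fold with I+B lay within 10 kb of 21.7% of members, against 17.1% of all regions. The authors' class was increasing at 717 members (65.8%), against 40.5% of all regions, unchanged at 344 (31.6%), against 31.8%, and decreasing at 29 (2.66%), against 27.8%. The sources used here do not define these classes.

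A region was tied to the closest protein-coding gene start of GENCODE 44, up to 100 kb away. This held for 779 members, which were linked to 638 genes, and a link says only that the gene is near. Several members lay near the same gene in 111 cases. TCIM, a small protein that acts in Wnt signalling, had 5, among 16 regions linked to it. LIF, a cytokine of the interleukin-6 family, and NFKBIA, which encodes IκBα, had 4 each. CFLAR, an inhibitor of death-receptor signalling, SIAH1, a ubiquitin ligase, and SMNDC1, a splicing factor, also had 4 each. The 5 members at TCIM had I+B signals of 21.9 to 32.7 in Ad-IκBαΔN cells and 67.5 to 306 in Ad-GFP cells, so the ranges did not overlap. The 4 members at SIAH1 had 13.9 to 42.5 in Ad-IκBαΔN cells and 54.1 to 149 in Ad-GFP cells.

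The CFLAR members show how neighbours can differ. The member 10.8 kb into the gene had an I+B signal of 63.5 in Ad-IκBαΔN cells, more than 2-fold over its Bud signal of 28.8. In Ad-GFP cells it had 106 with I+B and 34.7 with Bud. The member 0.978 kb from the start of CFLAR had 20.4 with I+B and 25.0 with Bud in Ad-IκBαΔN cells, and 132 with I+B and 32.4 with Bud in Ad-GFP cells. The first kept an I+B difference with the inhibitor (1.11), and the second had none (−0.28).

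The members with the largest I+B minus Bud difference in Ad-GFP among those linked to a gene had Bud signals under the median of all members. These values are what the rule selects, and the Ad-IκBαΔN values beside them are not. At NAB1, a corepressor of the EGR transcription factors, the region in its UTR had 19.2 with I+B, 17.8 with Bud and 7.05 in NS in Ad-IκBαΔN cells, against 413, 13.4 and 5.77 in Ad-GFP cells. The I+B minus Bud difference was 0.10 in Ad-IκBαΔN and 4.84 in Ad-GFP cells. At EBI3, a subunit of interleukin-27 and interleukin-35, the region just upstream had 19.8 with I+B, 9.24 with Bud and 7.40 in NS in Ad-IκBαΔN cells, against 387, 13.6 and 4.50 in Ad-GFP cells. Its I+B minus Bud difference was 1.02 in Ad-IκBαΔN and 4.73 in Ad-GFP cells, so EBI3 was one of the 29 members with a 2-fold difference under the inhibitor.

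The region linked to the kinesin gene KIFC3 lies in an intron of CNGB1. It had 23.2 with I+B, 23.0 with Bud and 9.90 in NS in Ad-IκBαΔN cells. In Ad-GFP cells it had 565, 22.3 and 5.01 with I+B, Bud and NS. The Bud signals of KIFC3 were close in the 2 viruses and the I+B signals far apart. The KIFC3 region held no GRE, κB or AP-1 match. At B4GALT1, a Golgi galactosyltransferase, an intronic region had I+B signals of 19.7 in Ad-IκBαΔN cells and 273 in Ad-GFP cells, and also no GRE, κB or AP-1 match. At MYH9, non-muscle myosin heavy chain IIA, the region printed above had I+B signals of 18.6 in Ad-IκBαΔN cells and 291 in Ad-GFP cells. The region linked to WTAP, a subunit of the RNA m6A methyltransferase, lies in a UTR of SOD2, the mitochondrial superoxide dismutase. It had 6.24 with I+B and 7.32 with Bud in Ad-IκBαΔN cells, and 193 with I+B and 7.86 with Bud in Ad-GFP cells. Its I+B signal in Ad-IκBαΔN cells was no higher than the NS signal of 6.34.

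Among members linked to a gene, those with the largest Bud minus NS difference in Ad-GFP had high Bud signals in both viruses. The largest of all members lies in an intron of PTPRN2, a receptor-type phosphatase family member, 155.7 kb from its start, and was named after its values were seen. It had 186 with I+B, 206 with Bud and 9.36 in NS in Ad-IκBαΔN cells, against 546, 243 and 7.62 in Ad-GFP cells. At RNF145, a ubiquitin ligase of the endoplasmic reticulum, an intronic region had 170 with I+B, 158 with Bud and 7.70 in NS in Ad-IκBαΔN cells, against 496, 195 and 6.38 in Ad-GFP cells. Bud minus NS was 4.19 in Ad-IκBαΔN and 4.73 in Ad-GFP cells. At KCNJ15, an inward-rectifier potassium channel, the region in the non-coding gene DSCR8 had 105, 108 and 6.37 with I+B, Bud and NS in Ad-IκBαΔN cells, against 374, 127 and 4.33 in Ad-GFP cells. At BMP6, a ligand of the TGF-β superfamily, a region 38.1 kb upstream had 46.5, 82.8 and 7.80 in Ad-IκBαΔN cells, against 285, 102 and 3.08 in Ad-GFP cells. At BMP6 the deposited I+B signal was thus lower than the Bud signal with the inhibitor and higher without it, with differences of −0.82 and 1.47.

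The other members of this kind followed the same course. At PTPN1, a tyrosine phosphatase of insulin signalling, Bud minus NS was 3.75 in Ad-IκBαΔN and 4.09 in Ad-GFP cells. At HSD3B1, an enzyme of steroid hormone synthesis, it was 2.59 in Ad-IκBαΔN and 4.51 in Ad-GFP cells, and the NS signals were 6.22 and 1.35. At MYBPC1, a myosin-binding protein of slow muscle, it was 2.21 in Ad-IκBαΔN and 4.05 in Ad-GFP cells, with NS signals of 8.72 and 2.18. The lower Bud minus NS differences of HSD3B1 and MYBPC1 in Ad-IκBαΔN cells thus came with higher NS signals there. USP40, of the deubiquitinase family, had 54.8 with I+B, 84.4 with Bud and 8.71 in NS in Ad-IκBαΔN cells, against 553, 94.96 and 3.47 in Ad-GFP cells. Its I+B minus Bud difference was −0.61 in Ad-IκBαΔN and 2.53 in Ad-GFP cells.

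The highest I+B signals of all members in Ad-GFP cells were at TESC, CYP2A7 and TUBD1. The region linked to TESC, a calcium-binding protein, lies in a UTR of FBXO21 and had 77.0 with I+B, 62.7 with Bud and 8.75 in NS in Ad-IκBαΔN cells, against 801, 82.7 and 12.6 in Ad-GFP cells. The region linked to CYP2A7, of the cytochrome P450 family, had 172, 190 and 7.42 in Ad-IκBαΔN cells, against 729, 237 and 21.6 in Ad-GFP cells. The region linked to TUBD1, delta-tubulin, lies in an intron of VMP1, an autophagy gene, and had 155, 233 and 11.8 in Ad-IκBαΔN cells, against 612, 279 and 16.8 in Ad-GFP cells. At all 3 the I+B signal in Ad-IκBαΔN cells was within 2-fold of the Bud signal. At SMAD3, a transcription factor of TGF-β signalling, the region printed above had 36.3, 39.2 and 11.1 in Ad-IκBαΔN cells, against 553, 39.0 and 10.9 in Ad-GFP cells. At SMAD3 the NS and Bud signals of the viruses were close and the I+B signals far apart.

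Members made up a larger share of the regions near inflammatory, feedback, and AP-1 and immediate early genes than of those near glucocorticoid-induced genes. Of 97 regions linked to NF-κB-dependent inflammatory genes, 18 (18.6%) were members. Of 62 linked to feedback genes and shared targets of GR and NF-κB, 13 (21.0%) were. Of 33 linked to AP-1 and immediate early genes, 7 (21.2%) were. Of 32 linked to lung epithelial genes, 5 (15.6%) were. Of 128 linked to glucocorticoid-induced genes, 11 (8.59%) were, against 10.1% of all regions. The contrast was not particular to the members. Regions gained with I+B alone made up 72.2% of the inflammatory, 54.8% of the feedback and 42.4% of the AP-1 and immediate early regions. They made up 37.5% of the lung epithelial and 23.4% of the glucocorticoid-induced regions. None of the 6 regions linked to housekeeping genes and none of the 5 linked to markers of other cell types was a member. With 5 to 128 regions a list, these shares are counts and were not tested. The 7 AP-1 and immediate early members lay near KLF4, KLF2, KLF6, MAFK, MAFF and FOSL2. Of these genes only FOSL2 is of the FOS and JUN families. Regions linked to 14 of 24 lung epithelial genes and to 4 of 14 markers of other cell types were in the table, which says where GR was bound and not which genes A549 cells express.

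In each list most members had the Bud difference with the inhibitor and few or none the I+B difference, as did the 1090 regions as a whole. Bud minus NS was at least 1 in Ad-IκBαΔN cells at 15 of the 18 inflammatory members and 12 of the 13 feedback members. It also was at all 7 AP-1 and immediate early members, all 5 lung epithelial members and 10 of the 11 glucocorticoid-induced members. I+B minus Bud as deposited was at least 1 in Ad-IκBαΔN cells at 1 of the 54, near FKBP5. Over the 1090 regions the shares were 74.0% for Bud minus NS and 2.66% for I+B minus Bud, and over all regions 59.3% and 9.65%. The list medians of I+B minus Bud in Ad-IκBαΔN cells were −0.05 for inflammatory, −0.09 for feedback and 0.18 for AP-1 and immediate early members. They were 0.18 for lung epithelial and 0.20 for glucocorticoid-induced members. In Ad-GFP cells, where the rule fixed the differences at 1 or more, the medians in the same order were 2.45, 2.08, 2.01, 1.22 and 1.48.

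Among inflammatory genes, the region 35.1 kb upstream of PTGS2, which encodes the prostaglandin-forming enzyme COX-2, had 53.4 with I+B, 68.4 with Bud and 8.09 in NS in Ad-IκBαΔN cells. In Ad-GFP cells it had 530, 72.6 and 13.1. The region at the start of CXCL8, the neutrophil chemokine interleukin-8, had 17.7, 20.5 and 6.85 in Ad-IκBαΔN cells, against 387, 23.7 and 4.25 in Ad-GFP cells. At both genes the I+B signal with the inhibitor was slightly below the Bud signal (differences of −0.35 and −0.20), against 2.85 and 3.97 in Ad-GFP cells. At C3, the central complement component, the intronic region had 22.6, 12.4 and 6.63 in Ad-IκBαΔN cells, against 309, 11.4 and 4.67 in Ad-GFP cells. C3 held a GRE and no κB match, and its I+B minus Bud difference in Ad-IκBαΔN cells was 0.81. BCL3, a nuclear member of the IκB family, had 3 members, with I+B signals of 42.5 to 58.9 in Ad-IκBαΔN cells and 132 to 249 in Ad-GFP cells.

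The other inflammatory members were at chemokine and cytokine genes. Those at CXCL2, CXCL3 and CXCL5, which draw neutrophils, had I+B signals of 17.3 to 40.2 in Ad-IκBαΔN cells and 107 to 169 in Ad-GFP cells. Those at LIF had 20.1 to 31.4 in Ad-IκBαΔN cells and 115 to 194 in Ad-GFP cells. IL1A, the other interleukin-1, had 25.0 in Ad-IκBαΔN cells and 149 in Ad-GFP cells. The region near IL6 was the weakest of the list, at 12.5 with I+B in Ad-IκBαΔN cells and 52.6 in Ad-GFP cells. No value in Ad-IκBαΔN cells reached the lowest Ad-GFP value of the same gene.

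Among feedback genes, TNFAIP3 encodes A20, which ends NF-κB signalling. Its region 55.6 kb upstream had 32.2 with I+B, 48.6 with Bud and 7.63 in NS in Ad-IκBαΔN cells, against 462, 56.0 and 6.92 in Ad-GFP cells. The start of IRAK3, a brake on IL1 receptor signalling, had 56.5, 37.6 and 8.91 in Ad-IκBαΔN cells, against 358, 31.6 and 14.2 in Ad-GFP cells. The start of BIRC3, an inhibitor of apoptosis with ubiquitin ligase activity, had 32.8, 42.5 and 8.26 in Ad-IκBαΔN cells, against 324, 47.7 and 9.35 in Ad-GFP cells. IRAK3 had a GRE and an I+B minus Bud difference of 0.58 in Ad-IκBαΔN cells. BIRC3 had κB matches and no GRE, and its difference was −0.37.

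NFKBIA itself encodes the natural counterpart of the inhibitor. Its strongest member had 88.5 with I+B, 94.0 with Bud and 8.38 in NS in Ad-IκBαΔN cells, against 298, 112 and 9.20 in Ad-GFP cells. The region lies 30.2 kb beyond the gene's start, in no gene, and holds the GRE printed above. The 4 NFKBIA members together had I+B signals of 22.9 to 88.5 in Ad-IκBαΔN cells and 64.3 to 298 in Ad-GFP cells, which overlap, and each was higher in Ad-GFP cells.

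Among AP-1 and immediate early genes, a region 49.1 kb upstream of KLF4, a zinc-finger transcription factor of epithelia, had 35.1 with I+B, 29.0 with Bud and 8.80 in NS in Ad-IκBαΔN cells, against 453, 33.0 and 7.48 in Ad-GFP cells. A region near MAFK, a small MAF protein, had 109, 66.8 and 8.32 in Ad-IκBαΔN cells, against 348, 87.1 and 5.71 in Ad-GFP cells. MAFK had the highest I+B signal of all list members in Ad-IκBαΔN cells, with an I+B minus Bud difference of 0.69. KLF2, another zinc-finger factor, had 27.0 with I+B in Ad-IκBαΔN cells and 142 in Ad-GFP cells. MAFF, linked to a region in an intron of PLA2G6, had 31.4 in Ad-IκBαΔN cells and 131 in Ad-GFP cells.

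Among glucocorticoid-induced genes, CEBPD, a C/EBP factor of the acute-phase response, had 33.8 with I+B, 35.8 with Bud and 9.11 in NS in Ad-IκBαΔN cells, against 141, 36.6 and 10.5 in Ad-GFP cells. TNS4, a tensin of cell adhesions, had 35.7, 45.3 and 6.21 in Ad-IκBαΔN cells, against 134, 41.1 and 13.7 in Ad-GFP cells. DDIT4, an inhibitor of mTORC1, had 65.2, 45.5 and 8.33 in Ad-IκBαΔN cells, against 118, 53.8 and 2.94 in Ad-GFP cells. DUSP1, a phosphatase that switches off MAP kinases, had 35.4, 28.5 and 7.64 in Ad-IκBαΔN cells, against 102, 30.3 and 4.31 in Ad-GFP cells. Their I+B signals in Ad-GFP cells were lower than those of the leading inflammatory and feedback members. FKBP5, a co-chaperone of GR, had 53.3 with I+B and 24.4 with Bud in Ad-IκBαΔN cells, and 91.9 and 32.4 in Ad-GFP cells. Its deposited I+B minus Bud difference was thus 1.09 with the inhibitor and 1.48 without. With the steps divided out it was 0.52 with the inhibitor and −0.078 without.

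The 5 lung epithelial members had I+B signals of 10.3 to 41.4 in Ad-IκBαΔN cells and 59.4 to 98.3 in Ad-GFP cells, at 3 genes. ELF3, an ETS factor of epithelia, had 38.3 with I+B and 33.7 with Bud in Ad-IκBαΔN cells, and 98.3 and 41.8 in Ad-GFP cells. EPCAM, an epithelial adhesion molecule, had 25.2 and 21.8 in Ad-IκBαΔN cells, and 65.3 and 22.9 in Ad-GFP cells. GATA6, a factor of lung development, had 10.3 and 11.7 in Ad-IκBαΔN cells, and 66.9 and 11.2 in Ad-GFP cells.

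**Figure D5:**
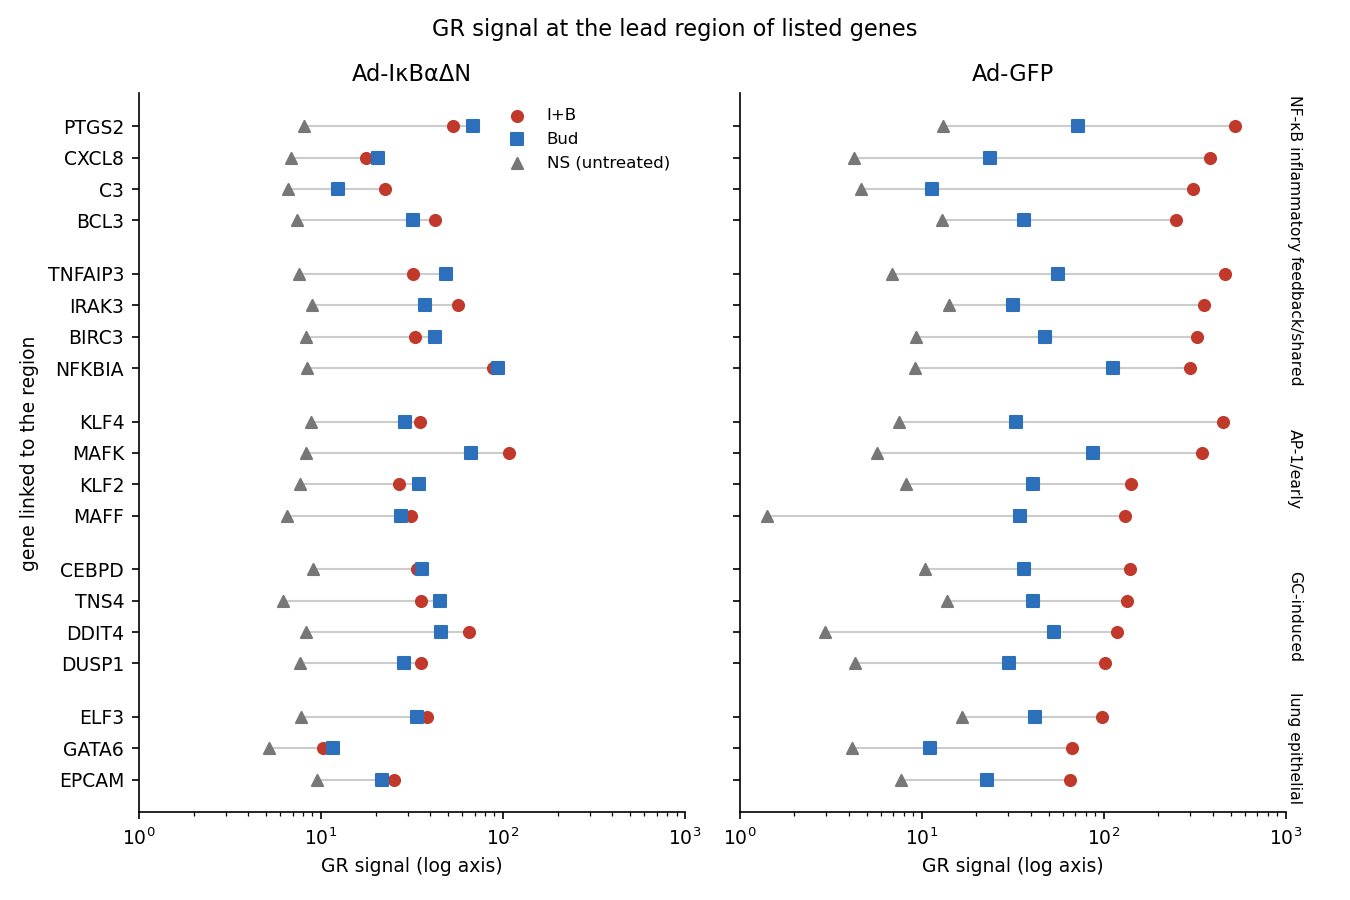
GR signal (log axis) at the strongest member of each named list gene in Ad-IκBαΔN (left) and Ad-GFP cells (right), with I+B (circles), Bud (squares) and NS (triangles). In the left panel circles lie on either side of their squares, all within 2-fold, and in the right panel every circle is to the right of its square, from 65.3 at EPCAM to 530 at PTGS2.

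The 29 members with a 2-fold I+B difference under the inhibitor were led by ABCG2, a drug efflux transporter. Its region had 25.6 with I+B, 7.20 with Bud and 6.30 in NS in Ad-IκBαΔN cells, against 24.7, 9.36 and 0.998 in Ad-GFP cells. The I+B signals of the viruses were thus close, and the I+B minus Bud difference was 1.70 with the inhibitor and 1.31 without. CADM2, a neuronal adhesion molecule, had 35.8 with I+B and 15.8 with Bud in Ad-IκBαΔN cells, and 103 and 20.0 in Ad-GFP cells. Members in introns of NEDD4L, a ubiquitin ligase that acts on the epithelial sodium channel, and of CPEB4, an RNA-binding protein, also belonged to the 29.

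Part of those 29 regions have near-identical copies elsewhere in hg38, defined as at least 300 aligned bases with at least 95% identity. This was so for 5 of the 29 (17.2%), against 24 of the other 1061 members (2.26%). They include the regions linked to GRAP and EPN2, which lie in the small nucleolar RNA genes SNORD3B-1, SNORD3A and SNORD3C and have 4 copies each. The region at CROCC, a gene of the ciliary rootlet, has 3 copies, and the region in GATD3 has 1. At GRAP the I+B and Bud signals were 95.025 and 33.9 in Ad-IκBαΔN cells, and 83.2 and 30.8 in Ad-GFP cells. At CROCC they were 61.1 and 26.6 in Ad-IκBαΔN cells, and 50.5 and 24.7 in Ad-GFP cells. How the authors assigned reads among such copies was not examined, so these values are uncertain as values of 1 locus. Without these 5, 24 remain.

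At the other end, the members linked to a gene that had the lowest I+B minus Bud difference under the inhibitor were CD99, FADD, C1orf105 and ROR1. CD99, a cell surface glycoprotein, had 27.1 with I+B and 55.9 with Bud in Ad-IκBαΔN cells, and 176 and 59.9 in Ad-GFP cells. The region linked to FADD, an adaptor of death receptors, lies in an intron of ANO1 and had 23.2 and 47.1 in Ad-IκBαΔN cells, and 131 and 46.5 in Ad-GFP cells. ROR1, a receptor for Wnt ligands, had 14.1 and 28.4 in Ad-IκBαΔN cells, and 68.8 and 30.2 in Ad-GFP cells. In all of these the Bud signals of the 2 viruses were close, and on the deposited scale the I+B signals lay on opposite sides of them. With the steps divided out, I+B minus Bud in Ad-GFP cells was −0.026 at CD99, −0.092 at FADD, −0.51 at C1orf105 and −0.38 at ROR1. The I+B signals of both viruses were then below Bud. CD99 lies in the pseudoautosomal region, and its sequence has 1 copy in the genome.

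The thresholds of the rule cut through a continuous range. Just inside the Bud limit was a region near GXYLT1 at 1.00, and just outside was a region near FOXA2 at 0.999. Just inside the I+B limit was a region near SLC7A5 at 1.00, and just outside was one near BCL2 at 0.998. Within 0.1 of the Bud limit lay 102 members and 119 regions just below it, and within 0.1 of the I+B limit 115 members and 113 regions below it. With both limits at 1.5-fold the rule chose 2215 regions, and with both at 3-fold it chose 275.

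Under all 5 scalings of the data that were computed, 5 regions met the rule. These were a second RNF145 region, a region in an intron of MACROD2, and regions near PNRC1, a nuclear receptor coactivator, BAAT, a bile acid conjugating enzyme, and F2RL3, a thrombin receptor. They are named after their values were seen. The RNF145 region had 33.2 with I+B and 61.8 with Bud in Ad-IκBαΔN cells, and 485 and 73.3 in Ad-GFP cells. The PNRC1 region had 28.1 and 36.1 in Ad-IκBαΔN cells, and 380 and 48.2 in Ad-GFP cells. The F2RL3 region had 36.7 and 21.9 in Ad-IκBαΔN cells, and 189 and 24.8 in Ad-GFP cells. Of the 5, 3 held a κB match and 1 a GRE.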

How the data were processed

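GR ChIP-seq of A549 cells was compared across 6 groups of 2 libraries. The authors' deposited table gives log2 GR binding intensities, 1 per region and group, and a class per region. Build hg38 and the tools DiffBind 3.2, MACS2 2.2.7.1, Bowtie2 2.4.4, FastQC 0.10.1, SAMtools and bcl2fastq are listed, without roles, per the submitters' processing notes. What made the intensities, and how libraries were combined, those sources do not say, and depth is unknown. Values were read as log2(signal + 1), since signal times 400 then fell on whole steps (tolerance 0.0001). Differences were taken on that scale and called at 1. Groups came from the labels, and no per-sample column was left unused.

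The 10740 regions of 400 bp were placed on hg38 with GENCODE 44. The closest protein-coding gene start within 100 kb gave the link, and "within 1 kb of a transcript start" used any annotated transcript. Motif shares carry 95% Wilson intervals. Copies were found with minimap2 2.31 (300 bases, 95% identity). Other tools were Python 3.11.15, numpy 2.4.6, pandas 2.3.3, scipy 1.17.1, matplotlib 3.10.9, pysam 0.24.0 and samtools 1.23.1. The rule and its counts were tested on simulated data.

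Members and gene lists were chosen with earlier results of these data known. Named regions, 1 per gene and only among members linked to a gene within 100 kb, were the 8 largest I+B minus Bud and the 8 largest Bud minus NS differences in Ad-GFP, the 6 highest Ad-GFP I+B values, the 6 highest and 4 lowest Ad-IκBαΔN I+B minus Bud differences, and up to 4 genes per list by Ad-GFP I+B. Others were named after their values were seen. Alternatives covered scale, fold, the added 1, a low-value filter, motif mismatches and window. RELA and input libraries were not used here.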

Additional observations from a re-analysis of the deposited data

Results flagged for a closer look

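At 6 of the 1090 regions the deposited I+B signal was at least 2-fold below the Bud signal in Ad-IκBαΔN cells. In Ad-GFP cells the rule had it at least 2-fold above on that scale. The difference between the viruses was not tested, since each group has 1 value. The I+B minus Bud differences in Ad-IκBαΔN cells were −1.09 near JAK1, a cytokine receptor kinase, and −1.08 near ZFAND3. They were −1.05 near HS6ST1, a heparan sulfate sulfotransferase, and −1.03 near GLIS3, a zinc-finger factor. They were −1.03 near ZFP36L1, an RNA-binding protein, and −1.02 at CD99. The GLIS3 region had 52.6 with I+B and 108 with Bud in Ad-IκBαΔN cells, and 386 with I+B and 118 with Bud in Ad-GFP cells. All but CD99 lie more than 100 kb from the start of the gene named.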

How the results depend on the processing

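No paired analysis was possible because the table holds 1 value per region and group, and for the same reason no library could be left out. The members numbered 170 with steps divided out, 35 re-centred, 50 quantile-normalized, 41 centred on the unchanged class, 2215 at 1.5-fold and 275 at 3-fold. The median Bud minus NS in Ad-IκBαΔN cells was 0.13 re-centred, 0.10 quantile-normalized and −0.35 centred on the unchanged class. With members chosen again, an alternative added after seeing the data, it was 0.97 with steps divided out, 0.63 re-centred, 0.11 quantile-normalized and 0.74 centred on the unchanged class. The median Ad-IκBαΔN minus Ad-GFP difference in I+B was −0.69 with steps divided out, −0.76 re-centred and −0.69 quantile-normalized, and in NS 1.23 quantile-normalized with members chosen again. Members with I+B minus Bud of at least 1 in Ad-IκBαΔN cells numbered 1 with steps divided out, 13 re-centred, 2 quantile-normalized, 94 at 1.5-fold, 3 at 3-fold and 19 without the lowest 25% of regions. Those with Bud minus NS of at least 1 there numbered 145 re-centred, 191 quantile-normalized, 62 centred on the unchanged class, 1545 at 1.5-fold and 230 at 3-fold. The GRE share was 1.19% at up to 1 mismatch and, with members chosen again, 4.71% with steps divided out, 6.00% quantile-normalized and 4.88% centred on the unchanged class. The κB share was 17.7% in the central 200 bases and, with members chosen again, 44.1%, 45.7%, 46.0% and 31.7% with steps divided out, re-centred, quantile-normalized and centred on the unchanged class. The AP-1 share was 20.1% in the central 200 bases and, with members chosen again, 24.1% with steps divided out and 39.0% centred on the unchanged class. With steps divided out, the I+B minus Bud difference in Ad-GFP cells became negative at 18 of 46 named regions. It was −0.24 at RNF145, −0.11 at BMP6, −0.020 at KCNJ15, −0.46 at HSD3B1, −0.53 at PTPN1, −0.45 at TUBD1, −0.17 at ABCG2, −0.15 at GRAP and −0.30 at EPN2. It was −0.53 at CROCC, −0.026 at CD99, −0.092 at FADD, −0.51 at C1orf105, −0.38 at ROR1, −0.17 at NFKBIA, −0.44 at DDIT4, −0.34 at ELF3 and −0.067 at EPCAM. Re-centred, it was −0.036 at CROCC and −0.00308 at C1orf105, and quantile-normalized, −0.41 at ABCG2. The cause was not tested.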
